A study of Mus musculus with 24 samples.

Results

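The genes described here were picked by their course in wild-type mouse oocytes and embryos: low in the oocyte and present at the end of the zygote stage. A protein-coding gene was taken when its mean over the wild-type libraries was under 10 FPKM in germinal vesicle (GV) oocytes, under 2 FPKM in metaphase II (MII) oocytes and at least 5 FPKM in PN5 zygotes, and when each of the 3 wild-type PN5 libraries held at least 4 times the MII mean. FPKM counts fragments per kilobase of transcript relative to the depth of the library, so it is a relative level. Of 21974 protein-coding genes measured, 6 passed these conditions and 5 remained after 1 histone gene, Hist1h2ba, was left out by its symbol. The 5 are Eif4e1b, Nabp2, Uvssa and the predicted genes Gm10800 and Gm21738. The wild-type GV, MII and PN5 values chose them, so those values are given as a description with no test.

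The working name for such genes would be zygote-activated minor wave genes, and the data did not bear that name out. Eif4e1b, Nabp2 and Uvssa were already present in wild-type GV oocytes, with means between 4.40 and 6.29 FPKM, and were lower at MII. Of these, Eif4e1b alone had all wild-type PN5 libraries above all GV libraries, at 2.27 times the GV mean. How many of all genes did so was not counted, so this is a description only. Gm10800 and Gm21738 were near 0 in wild-type oocytes, but were high in 1 of the 3 wild-type PN5 libraries only. They are therefore called by their symbols below.

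The study set wild-type mice against mice with a knockout of Nlrp14, a gene for an oocyte protein of the NLR family, and asked about female infertility and the arrest of early embryos. Total RNA of 5 pooled oocytes or embryos made each library, and each genotype had 3 libraries, labelled as biological replicates, of GV oocytes, MII oocytes, PN5 zygotes and 2-cell embryos. This makes 24 libraries in 8 groups, with no treatment in any of them. The deleted part of Nlrp14, the strain, the age of the females and the genotype of the males are not given in the sources used here. Whether pools of a group came from separate females is not stated either, and the p-values below measure only the spread between these pools. In a pool of embryos, fewer embryos carrying a transcript and less of it per embryo cannot be told apart.

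In the mouse, transcription stops in the fully grown oocyte and resumes weakly in the zygote, the minor wave of genome activation, before the major wave in the 2-cell embryo. Between these points the embryo lives on stored maternal RNA, part of which is translated or removed as its poly(A) tail is lengthened or shortened. Minor wave transcription is known to be promiscuous and to include repeats, and transcripts of pericentromeric satellite repeats appear around the time of the first cleavage. A rise of FPKM from MII to PN5 can hold new transcription, a change in tail length or the loss of other RNA. These data cannot tell them apart.

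The libraries held 7.65 to 12.3 M fragments, as recovered from the step between low FPKM values. Nlrp14 itself ran from 90.2 to 2014 FPKM over the wild-type libraries, against 5.75 to 39.2 FPKM over the knockout libraries, and the genotypes did not overlap at any stage. Oocyte markers were present in every group, and the 14 genes of that list summed to 11295 to 15272 FPKM in the GV and MII libraries. The 18 sperm and spermatid markers summed to 1.29 to 7.49 FPKM in the PN5 libraries, with 9 of them at 0 in all wild-type and 12 at 0 in all knockout PN5 libraries. The wild-type PN5 library of replicate 1 stood apart: 16 coding genes reached 5 FPKM in it and stayed under 1 FPKM in the other two, against 1 such gene for replicate 2 and 4 for replicate 3. Of those 16 genes, 15 reached a mean of 5 FPKM in wild-type 2-cell embryos, and Gm10800 and Gm21738 were among them. The share of all coding genes that reached this 2-cell mean was not counted. Gm10722 and Gm10801, which share sequence with Gm10800 and Gm21738, were also among the 16. The 16 genes of that library are therefore not separate observations. The early 2-cell list, genes such as the Zscan4 family that are known to peak in the 2-cell embryo, summed to 352 FPKM in that library, against 290 and 208 FPKM in the other wild-type PN5 libraries, 826 to 943 FPKM in wild-type GV oocytes and 3128 to 3987 FPKM in wild-type 2-cell embryos. Arg2 alone, which was highest at GV, made up 206 of the 352 FPKM. All genes together summed to 462297 FPKM in that library, against 369873 and 322159 FPKM in replicates 2 and 3. The higher sum of the list in replicate 1 thus goes with a higher total, and nothing is read from it.

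Few genes came close to the pattern asked for. Of the 16272 coding genes that were low in wild-type GV and MII oocytes by these limits, 14911 stayed under 1 FPKM at PN5. In all, 58 coding genes had a PN5 mean of at least 5 FPKM and at least 4 times the MII mean in each wild-type PN5 library, and 52 of these had a GV mean of 10 FPKM or more. With the MII mean also under 2 FPKM there were 32, of which 26 had a GV mean of 10 FPKM or more. The commoner course was thus high at GV, low at MII and higher at PN5 than at MII. Nabp2 and Uvssa followed it at a lower level, with wild-type PN5 libraries that overlapped those of GV. Eif4e1b was also low at MII, but its PN5 mean was 2.27 times its GV mean in wild type. In the knockout it was 1.83 times, and the libraries did not overlap in either genotype. The share of all genes without overlap between GV and PN5 was not counted, so nothing more is read from this.

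**Figure D1:**
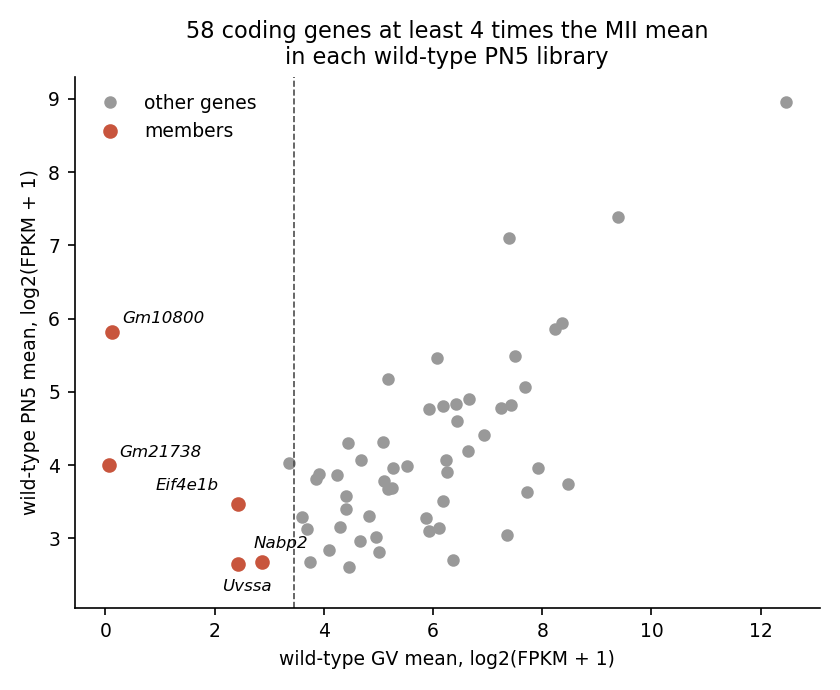
Wild-type mean at GV (x axis) against PN5 (y axis), both as log2(FPKM + 1), for the 58 coding genes with at least 5 FPKM at PN5 and at least 4 times the MII mean in each PN5 library; the dashed line marks a GV mean of 10 FPKM. Red points are the 5 genes described here, with Gm10800 and Gm21738 near 0 on the x axis and the other three between them and the line; 52 genes lie to its right.

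On both sides of the limits lay the following genes, with predicted genes such as those with Gm symbols left out of the outside ones. Just outside the GV limit lay Prelp (11.8 FPKM at GV), Nubp2 (12.5) and Tecr (16.1), and just inside it Nabp2 (6.29), Eif4e1b (4.41) and Uvssa (4.40). Just under the PN5 limit of 5 FPKM lay Vgll1 (3.92), Tmem29 (3.76) and Ccdc12 (3.73), and just above it Uvssa (5.28) and Nabp2 (5.38). The predicted genes Gm10722 (4.22) and Gm10801 (4.04) lay closer under that limit. The lowest PN5 library stood at 4.93 times the MII mean for Nabp2, 5.94 times for Eif4e1b and 6.14 times for Uvssa, and outside the limit of 4 at 3.77 times for Samd10, 3.36 times for Zfp709 and 3.31 times for Zfp383. Gm10800 and Gm21738 met the 4-fold condition trivially, because their wild-type MII mean was 0. They carry names of a kind that was to be left to counts and are described singly because of what their values showed.

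The sequences of Gm10800 and Gm21738 are shown because they place these gene models. Both come from the transcripts of GENCODE M21, and 615 of 660 aligned bases (93.2%) are identical between them. Bases 70 to 189 of the 2 transcripts follow, 5′ to 3′, with the only bases that differ in capitals.
Gm10800: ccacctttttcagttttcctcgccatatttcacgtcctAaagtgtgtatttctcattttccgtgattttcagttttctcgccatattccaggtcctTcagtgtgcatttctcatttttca
Gm21738: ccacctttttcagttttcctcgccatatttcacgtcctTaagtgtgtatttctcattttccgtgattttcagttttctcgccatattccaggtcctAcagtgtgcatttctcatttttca
The stretch is of the kind known as the mouse major satellite, the tandem repeat of pericentromeric heterochromatin, named here from general knowledge, since no repeat library was used. Within Gm10800 the best match of the transcript to itself lay at an offset of 225 bases, with 56.3% of bases equal. Within Gm21738 it lay at 234 bases, with 62.4% equal, so the match is a loose one. Gm10800 (ENSMUSG00000075014) is annotated on the minus strand of GRCm38 at chr2:98666547-98667301 with 5 exons and 660 bases, and Gm21738 (ENSMUSG00000095280) on the minus strand at chr14:19415857-19418930 with 6 exons and 681 bases. Counting the 2, 12 gene models in the annotation share at least 25% of their 20-base words with either of them, 9 of them side by side on chromosome 9. The sources used here do not say how fragments were split between such copies, so the level of any single copy is uncertain.

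Gm10800 read 165.8, 0 and 0.85 FPKM in the wild-type PN5 libraries of replicates 1, 2 and 3. It was at 0 in all wild-type MII libraries and at 0, 0 and 0.249 FPKM in wild-type GV oocytes. Replicate 1 alone was high at PN5, and it rested on 1222 fragments, against 0 and 6 in the other two. In knockout PN5 zygotes Gm10800 was at 1.33, 0.469 and 0.621 FPKM, which are 10, 3 and 4 fragments. A count of 3 fragments corresponds to 0.370 to 0.594 FPKM for this transcript. The knockout PN5 values of replicates 2 and 3 lay at or just above that level, and that of replicate 1 lay higher. Wild-type 2-cell embryos read 129, 169 and 77.3 FPKM, knockout ones 54.5, 23.9 and 22.5 FPKM, and the genotypes did not overlap. Ordered by group mean, wild-type 2-cell embryos came first (125 FPKM), then wild-type PN5 and knockout 2-cell, each overlapping the group before it, and the other 5 groups were under 1 FPKM.

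In Gm21738 the pattern was much alike. In wild-type PN5 zygotes it read 45.0, 0 and 0 FPKM, again with replicate 1 alone high, and in knockout PN5 zygotes it was at 0 in all 3 libraries, which allows up to 0.454 FPKM in any of them. Wild-type 2-cell embryos read 124, 128 and 76.8 FPKM, knockout ones 68.0, 18.1 and 51.7 FPKM, all knockout values lying below all wild-type values. The 2 models kept no fixed ratio: Gm10800 stood at 3.69 times Gm21738 in the wild-type PN5 library of replicate 1, at 1.01 to 1.32 times in wild-type 2-cell embryos and at 0.436 to 1.32 times in the knockout.

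Summed over all 12 satellite-like models, wild-type PN5 libraries held 243, 0.216 and 1.22 FPKM and knockout PN5 libraries 0.469 to 1.33 FPKM. The sum was 0 in all wild-type MII libraries, 179 to 351 FPKM in wild-type 2-cell embryos and 48.2 to 147 FPKM in knockout 2-cell embryos. The sum was therefore high in 1 of 3 wild-type PN5 libraries and in every 2-cell library of both genotypes. It is not separate from the 2 members, since Gm10800 and Gm21738 held 165.8 and 45.0 of the 243 FPKM in replicate 1. Of the other models, Gm10722 (12.7 FPKM) and Gm10801 (11.5 FPKM) were the highest in that library, and Gm10720 was at 0 in it and in both 2-cell means. Replicate 3 held 6 fragments of Gm10800, above the level of 3 fragments. Without replicate 1, neither Gm10800 nor Gm21738 would pass the rule.

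**Figure D2:**
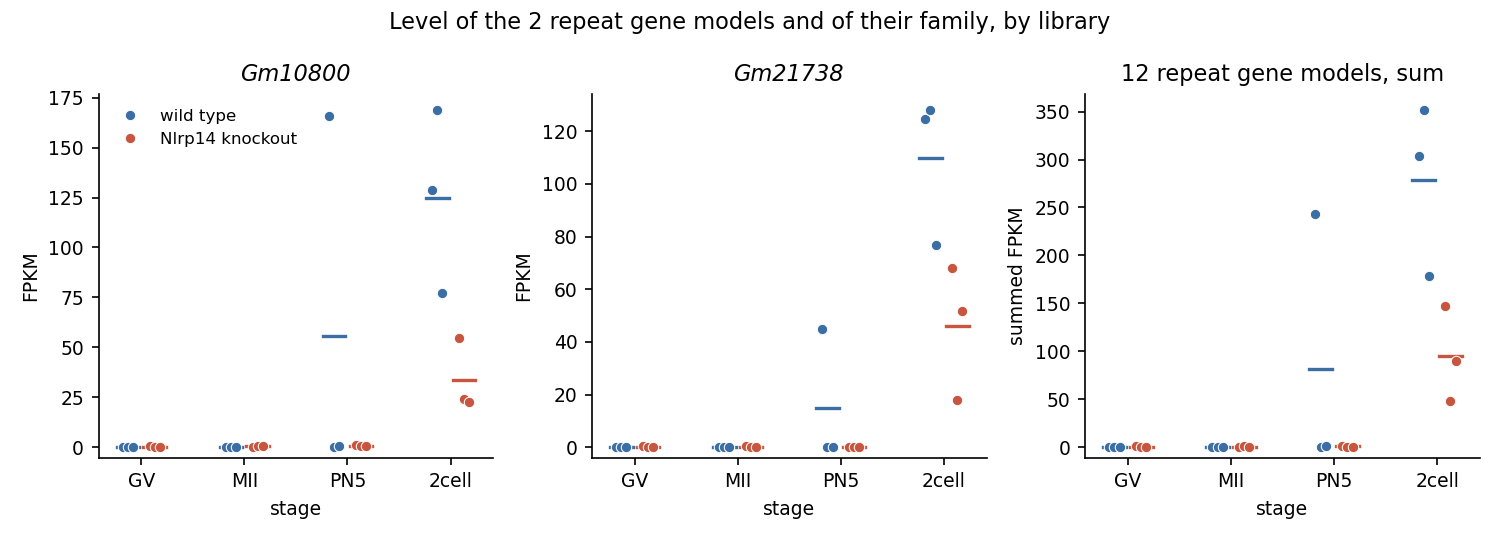
FPKM of Gm10800 and Gm21738, and the summed FPKM of the 12 satellite-like gene models, in each of the 24 libraries by stage (points; horizontal lines are group means of 3). At PN5 a single wild-type library is high (165.8 FPKM for Gm10800), and at the 2-cell stage all knockout libraries lie below all wild-type libraries in each panel.

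Eif4e1b encodes an oocyte-enriched relative of the cap-binding protein eIF4E, known as a regulator of the translation of stored maternal RNA. It is annotated on the plus strand of GRCm38 at chr13:54783998-54788459 (ENSMUSG00000074895), with 10 transcripts. In wild-type oocytes it read 4.65, 4.16 and 4.42 FPKM at GV and 1.07, 1.57 and 2.15 FPKM at MII. The wild-type PN5 libraries held 9.48, 11.1 and 9.52 FPKM, above all GV and all MII libraries. Knockout PN5 zygotes held 8.83, 9.76 and 10.3 FPKM and overlapped them, at 96.2% of the wild-type mean. The 2-cell embryos then parted by genotype: the wild-type libraries read 3.09, 5.65 and 4.66 FPKM and the knockout libraries 12.7, 18.1 and 18.1 FPKM. Wild-type 2-cell embryos lay below all wild-type PN5 libraries, while knockout 2-cell embryos lay above all libraries of every other group. By group mean the order was knockout 2-cell (16.3 FPKM), wild-type PN5 (10.02) and knockout PN5 (9.64), which overlap, then knockout GV (5.28), wild-type 2-cell (4.47) and wild-type GV (4.41), each overlapping the next, and last wild-type MII (1.59) and knockout MII (1.13), which overlap too.

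Nabp2 encodes the single-stranded DNA-binding protein SSB1, a subunit of the SOSS complex in the repair of DNA breaks. It is annotated on the minus strand at chr10:128401395-128411492 (ENSMUSG00000025374), with 9 transcripts. Its exons share 153 bases, 6.10% of their length, with Ankrd52 on the other strand, whose group means were between 0.0344 and 0.508 FPKM. In wild-type oocytes Nabp2 read 4.70, 8.11 and 6.07 FPKM at GV and 1.10, 1.24 and 0.846 FPKM at MII. At PN5 the wild-type libraries read 5.26, 5.63 and 5.24 FPKM, within the range of the GV libraries, and the knockout libraries 3.29, 5.94 and 3.75 FPKM, which overlapped. Wild-type 2-cell embryos read 7.76, 4.52 and 3.84 FPKM, knockout ones 9.92, 10.8 and 12.2 FPKM, all knockout libraries lying above all wild-type ones. Knockout 2-cell embryos had the highest mean (10.97 FPKM) and stood above the next group, knockout GV oocytes (8.48 FPKM). From there down, knockout GV, wild-type GV, wild-type PN5, wild-type 2-cell and knockout PN5 each overlapped the next, and both MII groups lay below all of these.

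Uvssa encodes the UV-stimulated scaffold protein A, which acts in transcription-coupled DNA repair at stalled RNA polymerase. It is annotated on the plus strand at chr5:33378549-33419754 (ENSMUSG00000037355), with 4 transcripts. In wild-type oocytes it read 3.78, 4.77 and 4.65 FPKM at GV and 0.399, 0.610 and 0.397 FPKM at MII. At PN5 the wild-type libraries spread from 2.88 through 4.61 to 8.35 FPKM, and the knockout libraries read 5.70, 0.449 and 4.63 FPKM. The knockout library of replicate 2 was low, and the groups overlapped. Wild-type 2-cell embryos read 1.35, 1.52 and 1.01 FPKM, knockout ones 0.985, 1.24 and 0.555 FPKM, overlapping again. Wild-type 2-cell embryos lay below all wild-type PN5 libraries, at 24.5% of their mean. The top 4 groups by mean, wild-type PN5 (5.28 FPKM), wild-type GV (4.40), knockout PN5 (3.59) and knockout GV (3.54), each overlapped the next, and all GV libraries lay above all 2-cell libraries.

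**Figure D3:**
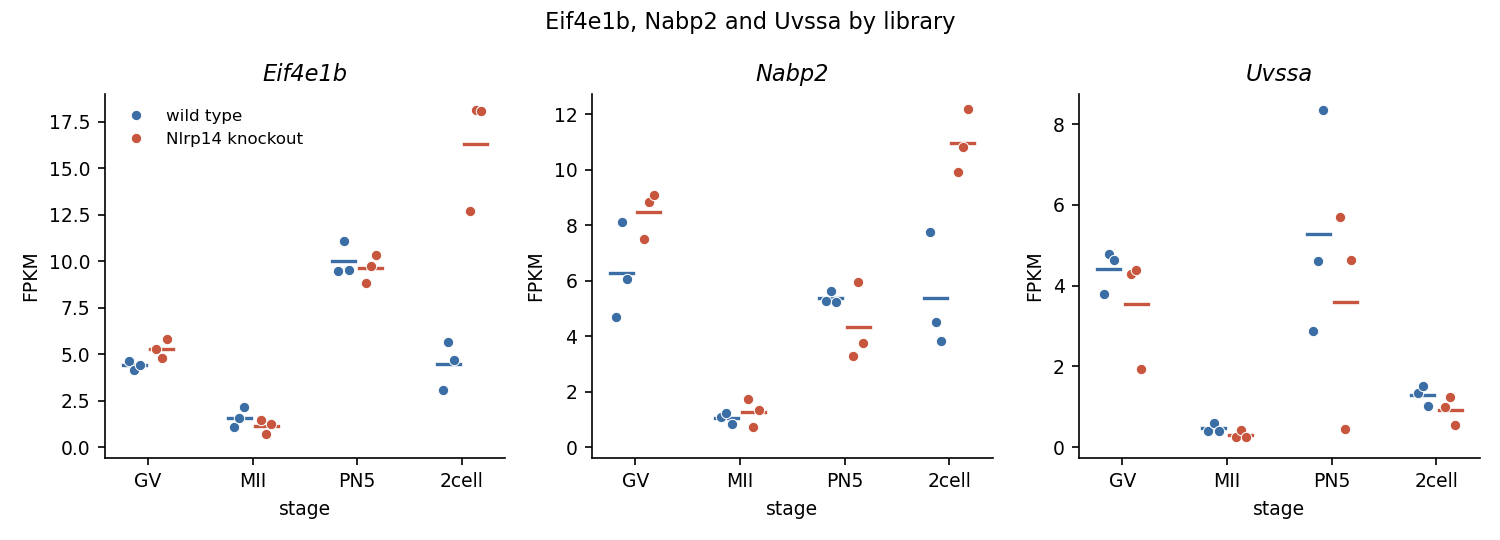
FPKM of Eif4e1b, Nabp2 and Uvssa in each of the 24 libraries by stage (points; horizontal lines are group means of 3; each panel has its own scale). All 3 genes have their lowest means at MII. At the 2-cell stage the knockout libraries of Eif4e1b and Nabp2 lie above all wild-type libraries, while those of Uvssa overlap.

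At PN5 itself the genotypes were set side by side without a test, since the wild-type values chose the genes. None of the 5 had groups that did not overlap. Over all 9483 genes at this stage, the genotypes did not overlap in 40.1%, and nothing is read from the members' count. Besides Eif4e1b at 96.2%, the knockout mean was 80.5% of the wild-type mean for Nabp2 and 68.0% for Uvssa. It was 1.45% for Gm10800, where replicate 1 alone made the wild-type mean, and Gm21738 was listed at 0 in the knockout. In the oocytes, the knockout MII mean was 1.13 FPKM for Eif4e1b, 1.27 FPKM for Nabp2 and 0.306 FPKM for Uvssa, and each overlapped wild type. Eif4e1b did not overlap at GV, where the knockout libraries read 5.25, 4.78 and 5.81 FPKM, all above the wild-type libraries. Gm10800 did not overlap at MII, where the knockout libraries read 0.275, 0.812 and 0.573 FPKM (2, 6 and 4 fragments) against 0 in wild type. The share of all genes without overlap was not counted at GV or MII, so nothing is read from these cases.

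From PN5 to the 2-cell stage in wild type, again without a test, the 5 genes went separate ways. Uvssa was at 24.5% of its PN5 mean. Eif4e1b stood at 44.6%, Nabp2 at 99.95% and Gm10800 at 2.25 times the PN5 mean, and Gm21738 at 7.32 times. The libraries did not overlap for Gm21738, higher in 2-cell embryos, nor for Eif4e1b and Uvssa, lower in them. Of 13398 genes, 50.3% were higher and 16.4% lower in this way, and nothing is read from the members' count.

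Whether the genes were also higher at PN5 than at MII in knockout libraries, which the rule did not use, was tested with limma on log2(FPKM + 1) over every gene that reached 1 FPKM in 3 or more of the libraries compared. Eif4e1b, the translation regulator, rose by 2.34 on the log2 scale (SE 0.19, limma, Benjamini-Hochberg adjusted p = 0.000513), from 1.46, 0.695 and 1.23 FPKM at MII to the PN5 values above. Nabp2 rose by 1.22 (SE 0.25, limma adjusted p = 0.00842), from 1.74, 0.747 and 1.33 FPKM. The groups did not overlap for either gene. Of the 8986 genes tested, 22.5% were called higher and 10.4% lower, and the median difference over all of them was 0.19, so both genes rose by more than the typical gene. With median-of-ratios rescaling, the split over all genes turned to 1227 higher and 1565 lower, and both genes were still called. Uvssa read 0.241, 0.426 and 0.251 FPKM in knockout MII oocytes, below all 3 knockout PN5 libraries. With 2 libraries over 1 FPKM it did not reach the filter, and without the filter its difference of 1.54 gave a limma adjusted p of 0.155, against 0.0135 with all 24 libraries in one fit. Gm10800 and Gm21738 also stayed below the filter, so 2 of the 5 genes could be tested.

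Between PN5 and the 2-cell stage in the knockout, Nabp2 and Eif4e1b were called higher, beside 43.8% of the 11450 genes tested, with 26.8% called lower and a median difference of 0.31. The satellite-like models passed the filter only through the 2-cell libraries, where they are high, so their difference is a description with no test. Gm10800 had a mean of 33.7 FPKM in knockout 2-cell embryos and 0.807 FPKM in knockout PN5 zygotes, and the libraries did not overlap. Gm21738, at 0 in all knockout PN5 libraries, was at least 107-fold higher in mean FPKM when 3 fragments per library are taken as the floor. Nabp2 rose by 1.20 (SE 0.21, limma adjusted p = 0.00140) and Eif4e1b by 0.69 (SE 0.18, limma adjusted p = 0.00900). The call of Eif4e1b depended on the scale: with every library rescaled to the same sum (TPM) its difference was 0.10 with a limma adjusted p of 0.640, and the split over all genes turned to 3347 higher and 4631 lower. Uvssa differed by -0.99 (SE 0.54, limma adjusted p = 0.136). Without the knockout PN5 library of replicate 2, in which Uvssa was at 0.449 FPKM, it fell by 1.69 with a limma adjusted p of 0.000939, and with all 24 libraries in one fit that p was 0.0394. With the trend on length and GC content removed, its difference shrank to -0.33 (limma adjusted p = 0.592).

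At the 2-cell stage, which the rule did not use in either genotype, Eif4e1b and Nabp2 were higher in knockout than in wild-type embryos and the 2 satellite-like models were lower. Eif4e1b was higher by 1.67 on the log2 scale (SE 0.26, limma adjusted p = 0.00125), or 3.65 times in mean FPKM. Nabp2 was higher by 0.95 (SE 0.27, limma adjusted p = 0.0160), or 2.04 times. Gm10800 was lower, with a log2 difference of -1.91 (SE 0.39, limma adjusted p = 0.00392), at 26.9% of the wild-type mean. Gm21738 was lower too, with a log2 difference of -1.39 (SE 0.45, limma adjusted p = 0.0285), at 41.8%. How fragments were split between such copies is not known, so these 2 calls may not be separate observations. For Uvssa the difference of -0.26 (SE 0.23) did not pass the test (limma adjusted p = 0.368), which does not show that the genotypes are alike.

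These calls stand beside a wide difference between the genotypes at that stage. Of 13828 genes tested, 14.0% were called higher and 40.3% lower in the knockout, and the median difference over all genes was -0.44. With median-of-ratios rescaling the median was -0.22 and 2604 genes were higher and 4456 lower. The libraries did not overlap, with the knockout higher, in 17.5% of genes, which holds for 2 of the 5. With the knockout lower they did not overlap in 44.6%, which holds for the 2 satellite-like models. The calls with the smaller margins changed with single libraries: Nabp2 had a limma adjusted p of 0.0565 without wild-type replicate 2 and 0.0546 without knockout replicate 3, and Gm21738 one of 0.0878 without wild-type replicate 1 and 0.0982 without wild-type replicate 2. For Gm21738 the limma adjusted p was also 0.0567 with median-of-ratios rescaling and 0.0907 with no filter. The fit over all 24 libraries gave limma adjusted p-values of 0.143 for Gm10800 and 0.188 for Gm21738.

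**Figure D4:**
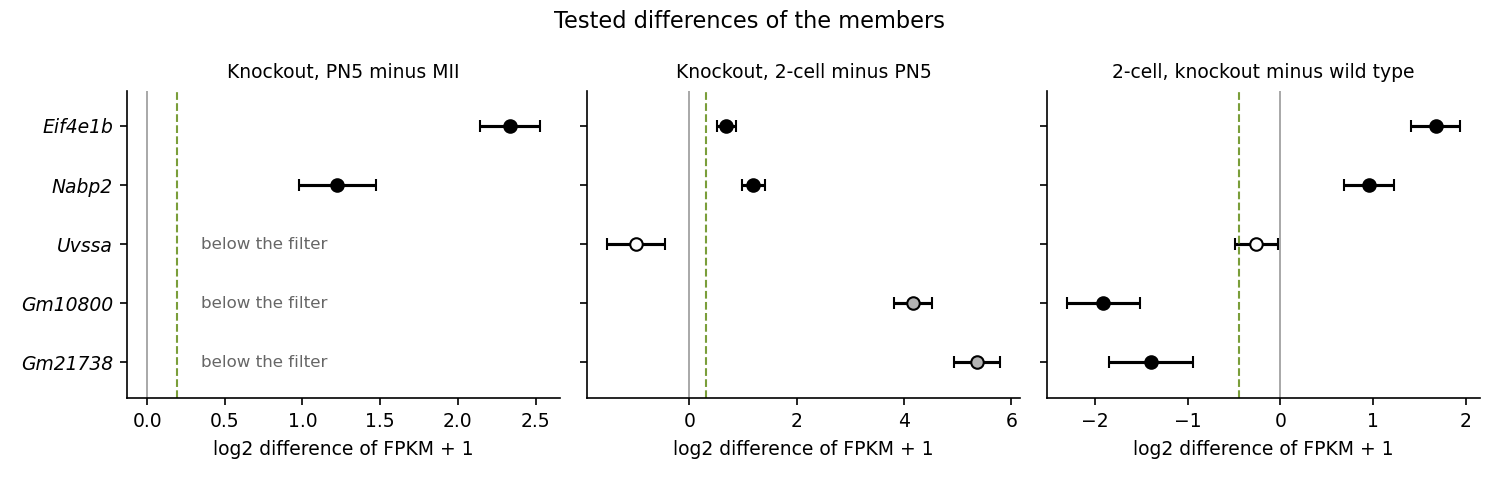
Difference in log2(FPKM + 1) with its standard error for the 5 genes in the 3 comparisons tested with limma. Black points passed an adjusted p of 0.05 and open points did not, grey points passed the filter only through the 2-cell libraries and are a description, the dashed line is the median of all genes tested (0.19, 0.31 and -0.44), and genes below the filter were not tested; Eif4e1b and Nabp2 lie to the right of 0 in all 3 panels.

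The 14 oocyte markers, set beside the 5 genes as a measure of maternal RNA, summed to 1202 to 1632 FPKM in wild-type 2-cell embryos, against 4070 to 4995 FPKM in those of the knockout, and 8 of the 14 were called higher and 1 lower in the knockout, beside the 14.0% and 40.3% of all genes given above. Not all went one way: Zp3, a zona pellucida gene, was at 17.9 to 26.8 FPKM in the knockout, below its wild-type range of 54.0 to 86.2 FPKM. The early 2-cell list did not move one way: of its 39 measured genes 35 were tested, 5 were called higher and 11 lower. Its sum was 2857 to 4487 FPKM in knockout 2-cell embryos and overlapped the wild-type range given above, while the sum of the satellite-like models did not overlap. The part of either list in the differences of the 5 genes was not tested.

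None of the 5 genes belonged to the lists of known genes that were set beside them. At PN5, 10 of the 39 early 2-cell genes reached a mean of 1 FPKM in wild type, against 35 of them in 2-cell embryos. In the knockout, 2 of these 39 genes were called higher and 0 lower from MII to PN5, where 6 were tested. From PN5 to the 2-cell stage 34 were tested, with 34 called higher and 0 lower, beside 43.8% and 26.8% of all genes. Only 6 of the 39 had a knockout PN5 mean of at least 1 FPKM. Most of them thus passed the filter only through the 2-cell libraries, where they are high, and nothing is read from that count. The shares of all genes called higher and lower were 22.5% and 10.4% from MII to PN5 in the knockout, and 14.0% and 40.3% in knockout against wild-type 2-cell embryos. The embryonic transcription factors had 8 called higher and 2 lower of 18 tested in the first of these comparisons, and 1 higher and 14 lower of 24 in the second. The ribosome biogenesis genes had 9 higher and 2 lower of 29 tested, then 0 higher and 40 lower of 43. The immediate-early and heat shock genes had 4 higher and 1 lower of 11 tested, then 0 higher and 16 lower of 23. The p53 targets and apoptosis genes had 1 higher and 1 lower of 8 tested, then 1 higher and 13 lower of 17. In knockout 2-cell embryos 35 of 44 ribosome biogenesis genes had a mean of at least 1 FPKM, against 44 in wild type. For the embryonic transcription factors it was 19 against 25, and for the immediate-early and heat shock genes 17 against 25. Some genes called lower may thus have passed the filter only through the wild-type 2-cell libraries, where they are high. Nothing is read from the counts of these lists. Few markers of other cells reached the filter in the 2-cell comparison. Of 6 sperm and spermatid markers tested 0 were higher and 2 lower, of 4 granulosa and cumulus markers 1 was higher and 2 lower, and of 5 blood, stroma and oviduct markers 0 were higher and 3 lower.

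Short motifs were searched at both ends of the genes. RefSeq promoters (GRCm38.p6, 250 bases before to 50 after a start) were matched for 2 of the 5, Uvssa with 1 and Nabp2 with 3. On either strand, the Uvssa promoter held GGGCGG, the GC box, 1 time and CGGAAG, the core of ETS sites, 2 times. One Nabp2 promoter held CCAAT 3 times, and its other two held none of the motifs searched, which also included TATAAA. Of 32851 promoters, 35.7% held GGGCGG, 16.9% CGGAAG, 37.4% CCAAT and 13.6% TATAAA. In the last 150 bases of the longest transcript, the polyadenylation signal AATAAA was found in Eif4e1b, Nabp2 and Uvssa, not in Gm10800 or Gm21738, and in 63.1% of 21812 genes. The cytoplasmic polyadenylation element TTTTAT was found in Uvssa, 40 bases from the end, and in 16.9% of genes. No match says only that these letters are not in the window searched.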

How the data were processed

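The authors deposited FPKM for 55487 genes in 1 file per library. They used StringTie on GRCm38, per the submitters' processing notes. The aligner, versions and annotation are not given in the sources used here. Per the labels' protocols, the SMART-Seq HT kit gave the complementary DNA. Symbols, types and positions came from GENCODE M21, which matched 55227 identifiers. Groups and replicate numbers came from the sample labels.

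The product of FPKM and length was a whole multiple of a step, fixed within a library, in 98.9 to 99.3% of low values of single-transcript genes (tolerance 0.02, multiples up to 30), which gave the depth and the fragments quoted. No count model was applied. Intervals and floors cover counting error only.

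Tests used limma 3.58.1 (R 4.3.3), with trend and robust settings on log2(FPKM + 1), over genes that reached 1 FPKM in 3 or more libraries of the 2 groups compared, adjusted by Benjamini-Hochberg over all genes tested. A call is an adjusted p under 0.05. The fit was also run on simulated data with independent normal noise. That run checks the working of the fit only, and no result here rests on it. Python 3.11.15, pandas 2.3.3, numpy 2.4.6, matplotlib 3.10.9 and Biopython 1.88 did the rest. Members and lists were chosen with earlier results of these data known. The rule for named genes took the highest PN5 levels and the largest differences; with 5 members, all are named. Same-numbered replicates did not deviate together (correlations from -0.172 to 0.0762), so the numbers were not taken as pairs. The alternatives tried changed the pseudocount, the filter, the scaling, the length and GC trend, the libraries in the fit, the block and the limits of the rule.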

Additional observations from a re-analysis of the deposited data

Results flagged for a closer look

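Eif4e1b changed in opposite directions between PN5 and the 2-cell stage in the 2 genotypes. On the log2(FPKM + 1) scale the wild-type change was -1.04 and the knockout change 0.69, a difference of 1.72. All 3 wild-type 2-cell libraries lay below all wild-type PN5 libraries, and all 3 knockout 2-cell libraries lay above all knockout PN5 libraries. The difference was not tested, because the wild-type PN5 values chose the gene. On TPM the knockout change was 0.10.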

How the results depend on the processing

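The number of genes passing the rule moved most. It was 5 on FPKM as deposited, 8 with median-of-ratios rescaling and 3 on TPM. Those 3 were Gm10800, Gm21738 and Uvssa, so Eif4e1b and Nabp2 did not pass on TPM. With at least 10 FPKM at PN5 there were 3, Gm10800, Gm21738 and Eif4e1b. With at least 8 times the MII mean 2 remained, Gm10800 and Gm21738. The number was 7 to 9 when 1 wild-type PN5 library was left out, and Uvssa did not pass without replicate 3. Of the 7 genes without replicate 1, 3 were among the 5. An alternative chosen after seeing the data, at least 1 FPKM in each wild-type PN5 library, left 3: Eif4e1b, Nabp2 and Uvssa.

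Called members, higher from MII to PN5 in the knockout, numbered 1 in place of 2 with a mean of at least 5 FPKM, where Nabp2 was no longer tested, and 3 with all 24 libraries in one fit. Members lower in knockout than wild-type 2-cell embryos numbered 1 in place of 2 with no filter on low values, 1 with median-of-ratios rescaling and 0 with all 24 libraries in one fit; leaving out 1 library gave 1 to 2, and 1 to 2 for those higher. Members lower from PN5 to 2-cell in the knockout numbered 1 in place of 0 with all 24 libraries in one fit, and 0 to 1 with 1 library left out. The satellite-like models, a description with no test, are left out of those higher. Nabp2 was called higher from PN5 to 2-cell in all 14 alternatives and Eif4e1b in 13, not on TPM. On TPM 3347 of 11253 genes were called higher, against 5020 of 11450 in the main fit. Whichever knockout 2-cell library was left out, Gm21738 no longer reached the filter. The cause of the other shifts was not tested. With the replicate block the counts (higher and lower) stayed at 2 and 0 from MII to PN5 in the knockout. They stayed at 2 and 2 between the genotypes at the 2-cell stage. No gene's difference changed sign under an alternative. The 3 libraries a group and the low levels limit the precision: the standard error of Uvssa from PN5 to 2-cell in the knockout was 0.54.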
